A study of Mus musculus with 12 samples.

Results

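Fatty acid handling and lipid storage were followed through 9 genes in mouse fetal liver alveolar-like macrophages (FLAMs): Fabp1, Fabp4, Fabp5, Plin2, Plin3, Cidec, Lpl, Dgat1 and Dgat2. They were taken by symbol, as 9 of the 40847 genes in the count table. All 9 passed the filter on low counts that left 14749 genes. The list was chosen with earlier results of these data known, so its counts are set beside those of all genes as a description only. FLAMs are cells grown from fetal liver that are used as a model of the alveolar macrophage. All cultures received recombinant mouse GM-CSF at 30 ng/ml. Untreated cultures received nothing else, TGFβ cultures were kept in recombinant human TGFβ1 at 20 ng/ml, Pam3 cultures had no TGFβ1 and were given Pam3CSK4 (Pam3), a synthetic lipopeptide that activates TLR2, for 18 h at 25 ng/ml, and Pam3+TGFβ cultures received both at these doses. Each of the 4 groups has 3 mRNA libraries. The labels do not say how long cells were kept in TGFβ1, nor whether the libraries of a group came from separate isolates or animals, so p-values measure only the spread between these libraries, which may be technical. The series asks how TGFβ changes the answer of these cells to TLR2 activation, and the genes described here show that design for lipid handling.

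Fatty acids enter a macrophage from the lipoproteins and surfactant lipids around it. Lipoprotein lipase (Lpl) is a secreted enzyme that frees fatty acids from circulating triglyceride. Fatty acid binding proteins (Fabp) are small cytosolic carriers of these acids: Fabp1 is best known from liver, Fabp4 from adipocytes and macrophages, and Fabp5 from epidermis and macrophages. The DGAT enzymes add the last fatty acid to make triglyceride, which is kept in lipid droplets. Perilipins (Plin2, Plin3) coat these droplets, and Cidec helps small droplets fuse into large ones. Alveolar macrophages are known for handling the lipids of surfactant and for their need of the nuclear receptor PPARγ, a regulator of several of these genes in fat cells.

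The 2 genes that rose most with TGFβ among the 9 (Fabp1 and Dgat2) and Fabp5, a carrier that fell, are shown by their promoters, 250 bases before and 50 bases from the annotated start, read from GRCm39 at the GENCODE M39 canonical start. Capitals mark every match, on either strand, of 4 of the 9 short motifs searched: the TATA box (TATAAA), the CCAAT box (CCAAT), the C/EBP site (TTGCNNAA) and the direct repeat bound by PPAR/RXR receptor pairs.
Fabp1 (chr6:71176559-71176858, plus strand): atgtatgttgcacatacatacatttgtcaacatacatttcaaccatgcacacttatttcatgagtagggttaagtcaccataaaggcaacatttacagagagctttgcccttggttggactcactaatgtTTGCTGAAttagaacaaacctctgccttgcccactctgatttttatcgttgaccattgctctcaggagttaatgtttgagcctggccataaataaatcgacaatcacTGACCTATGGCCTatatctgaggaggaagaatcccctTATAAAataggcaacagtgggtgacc
Dgat2 (chr7:98831912-98832211, minus strand): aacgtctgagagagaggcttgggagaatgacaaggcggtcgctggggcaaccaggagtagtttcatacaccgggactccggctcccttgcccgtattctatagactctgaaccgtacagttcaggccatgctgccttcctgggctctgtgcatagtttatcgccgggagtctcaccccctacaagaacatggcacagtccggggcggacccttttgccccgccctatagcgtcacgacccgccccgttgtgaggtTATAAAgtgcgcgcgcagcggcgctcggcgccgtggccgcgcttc
Fabp5 (chr3:10077352-10077651, plus strand): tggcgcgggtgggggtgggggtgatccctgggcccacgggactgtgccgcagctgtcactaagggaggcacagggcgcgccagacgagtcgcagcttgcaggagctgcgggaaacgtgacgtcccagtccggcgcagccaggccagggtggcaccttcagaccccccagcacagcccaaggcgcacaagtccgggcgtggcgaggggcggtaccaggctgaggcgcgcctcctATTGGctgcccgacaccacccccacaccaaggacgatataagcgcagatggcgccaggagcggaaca
The Fabp1 promoter holds the PPAR/RXR repeat as TGACCTATGGCCT, from base -13 to base -1 before the start. This motif was found in 0.404% of 21770 protein-coding promoters of the same length, and in none of the 7 other promoters searched. TATA boxes were found in the promoters of Fabp1, Lpl and Dgat2, against 13.2% of all promoters. Those of Fabp1 and Dgat2 lie after the annotated start, at bases 25 to 30 and 6 to 11, whereas a working TATA box lies before the start it serves. The Lpl match lies at bases -8 to -3 and is on the reverse strand (TTTATA), and whether it works was not tested. All positions here are counted from the annotated start, and where transcription starts in these cells was not measured. The half-site AGGTCA, which on the reverse strand overlaps the Fabp1 repeat and is not in capitals on its own, was found in Fabp1 and Plin2, against 15.1% of promoters. The GC box (GGGCGG), also not in capitals, was found in Fabp5, Plin3 and Dgat2, against 42.5%. The C/EBP site was found in Fabp1 and Lpl, against 10.7% of promoters, and the CCAAT box in Fabp5, Plin3, Cidec and Lpl, against 39.9%. The AP-1 site (TGANTCA, 7.14% of promoters), the SMAD box palindrome (GTCTAGAC, 0.266%) and the NF-kB site (0.478%) were searched too and matched none of the 8 windows, which says only that these letters are not in them. The Fabp5 and Dgat2 windows are rich in CG pairs, with 25 and 26 of them, while that of Fabp1 has 2. These matches are letters in a window, and no binding was measured.

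Library totals ran from 34036650 to 44374115 counts. The 9 genes together held 0.456 to 0.81% of the counts, and Lpl alone 0.355 to 0.713%. Of 12 alveolar macrophage markers, 11 had a mean above 1 CPM without TGFβ and 12 with it. CPM are counts scaled to the library total after TMM correction. The levels of these markers moved both ways with TGFβ. Mean CPM in untreated and TGFβ libraries was 32.1 and 300 for Siglecf, 5.05 and 72.3 for Ear1 and 0.147 and 52.5 for Krt79. It was 2150 and 123 for Marco and 335 and 168 for Itgax. The adipocyte list summed to 17 to 18.8 CPM in untreated and 20.1 to 22.6 CPM in TGFβ libraries. In it Adipoq and Lep had no count in any library, Lipe had a mean of 16 and 15.1 CPM, Plin1 of 1.55 and 5.74 CPM and Retn of 0.00802 and 0.234 CPM. The lymphocyte, erythroid and fibroblast lists summed to at most 1.28 CPM. The hepatocyte list, with 2 of 7 genes above 1 CPM, was carried by Trf, the transferrin gene, and its sum ran from 868 to 960 CPM in untreated and from 1900 to 2040 CPM in TGFβ libraries. The endothelial list was carried by Vwf and ran from 287 to 303 CPM in untreated and from 181 to 197 CPM in TGFβ libraries. In it Cdh5 had a mean of 0.888 and 0.0514 CPM, Kdr of 0.865 and 0.082 CPM, Tek of 0 and 0.0175 CPM and Pecam1 of 0.895 and 2.46 CPM. In the groups given Pam3 the endothelial sums were lower, 218 to 223 CPM without TGFβ and 121 to 137 CPM with it. Pecam1 had means of 1.03 and 2.77 CPM there, Cdh5 of 0.74 and 0.124 CPM and Kdr of 0.944 and 0.526 CPM. Neutrophil list sums were 13.5 to 15.7 CPM in untreated and 3.75 to 5.51 CPM in TGFβ libraries. They were carried by S100a8 (mean 13.8 and 3.07 CPM), while S100a9 (0.253 and 0.993), Ngp (0.346 and 0.623) and Camp (0.00802 and 0.174) were higher in TGFβ libraries. Dendritic cell sums, carried by Zbtb46, were 4.48 to 5.62 CPM and 1.23 to 1.94 CPM, and those of mast cells and basophils, carried by Cpa3, 0.342 to 1.4 CPM and 0 to 0.0741 CPM, in the same order. In Pam3 and Pam3+TGFβ libraries the hepatocyte sums were 871 to 907 and 1760 to 1850 CPM, and the adipocyte sums 17.3 to 20 and 19.6 to 22.3 CPM. Neutrophil sums were 16.3 to 17.1 and 5.31 to 6.99 CPM in these 2 groups, and dendritic cell sums 3.88 to 5.18 and 1.69 to 2.53 CPM. The part of these cell types in the results below was not tested. In bulk RNA, fewer cells of a type and less RNA per cell cannot be told apart. The 5 libraries untreated 3, TGFβ 1, TGFβ 3, Pam3 2 and Pam3 3 stood apart, since they had 5.01 to 8.25% of their counts in 9 rows of RNAs that carry no poly(A) tail, against 0.195 to 1.63% in the other 7 libraries. The changes of the 9 genes are therefore given with and without these 5 libraries, and for other lipid genes each printed call that is lost without them is given with its value. The fit without them has 1 TGFβ and 1 Pam3 library, each assumed to vary like the other groups.

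With TGFβ and no Pam3, all 9 genes differed from untreated cells, against 51% of all tested genes: 5 were higher (Fabp1, Plin2, Cidec, Dgat1 and Dgat2), where 22.9% of all genes were higher, and 4 were lower (Fabp4, Fabp5, Plin3 and Lpl), where 28.1% were lower. A log2 change of 1 or more was seen in 4 of the 9, against 13.5% of all genes, and their median log2 fold change was 0.17 against -0.01 over all genes. A gene is called different at a Benjamini-Hochberg adjusted p below 0.05 over all 14749 genes, from the quasi-likelihood test of edgeR. Within the carriers and the perilipins TGFβ raised 1 gene and lowered the rest. Without the 5 libraries that stood apart, 3 genes were higher and the same number, 4, were lower.

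Fabp4 had the largest change of the 9. It was at 31.01, 32.22 and 29.97 CPM in the untreated libraries and at 0.166, 0.0741 and 0.157 CPM in the TGFβ libraries, where 3 to 6 counts were left per library. Every TGFβ library was far below every untreated one. Its level fell by 7.86 on the log2 scale (SE 0.196, 95% interval -8.26 to -7.45, adjusted p 4.93e-21), which was rank 31 by size among the 14749 genes. With Pam3 present the picture was alike: 28.46, 26.33 and 20.94 CPM in the Pam3 libraries against 0.233, 0.107 and 0.203 CPM in the Pam3+TGFβ libraries, a log2 change of -7.10 (SE 0.189, adjusted p 2.25e-20). The 2 Pam3 libraries of lower level are among those that stood apart. Without the 5 libraries the TGFβ changes were -8.65 and -7.26.

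Fabp5 fell too, but stayed an abundant transcript. Untreated libraries had 261, 305 and 266 CPM and TGFβ libraries 136, 134 and 127 CPM, and the groups did not overlap. The log2 change was -1.07 (SE 0.0519, adjusted p 3.58e-15). In Pam3-treated cells the libraries went from 247, 250 and 247 CPM without TGFβ to 114, 121 and 121 CPM with it, and the log2 change was -1.06 (SE 0.052, adjusted p 5.41e-15). Without the 5 libraries that stood apart these were -1.06 and -1.05. The size of the TGFβ effect on Fabp5 did not change detectably with Pam3 (difference 0.01, 95% interval -0.14 to 0.16 on the log2 scale). Fabp4 and Fabp5 lie in 1 gene cluster, with starts 196 kb apart. Fabp4 is at chr3:10268785-10273737 on the minus strand and Fabp5 at chr3:10077602-10081674 on the plus strand. None of the 4 annotated protein-coding genes between them (Myef2l, Pmp2, Gm37389 and Fabp9) passed the count filter. Noncoding genes between them were not examined.

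Fabp1, the liver type carrier (chr6:71176809-71182016, plus strand), moved the other way. It was at 2.10, 1.20 and 2.20 CPM in untreated libraries (50 to 80 counts) and at 18.65, 19.63 and 18.6 CPM in TGFβ libraries (674 to 795 counts). All TGFβ libraries lay above all untreated ones, and the log2 change was 3.38 (SE 0.152, adjusted p 8.47e-16), a 10.4-fold rise. With Pam3 the rise was smaller, from 3.17, 2.92 and 2.92 CPM to 12.3, 14.9 and 11.9 CPM, a log2 change of 2.11 (SE 0.144, adjusted p 4.43e-12). Without the 5 libraries that stood apart these changes were 3.60 and 2.04. In the hepatocyte list Trf had a mean of 916 CPM in untreated and 1950 CPM in TGFβ libraries. In the same groups Afp had 5.77 and 5.90 CPM, Apoa2 0.3 and 0.179 CPM and Apoa1 0.057 and 0.0262 CPM, while Alb had at most 5 counts in a library and Ttr none. The part of this list in the Fabp1 result was not tested.

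Measured per kilobase of the canonical transcript, Fabp5 was the leading carrier in every library, but the make-up of the 3 carriers changed with TGFβ. The shares depend on the length used, and the SD covers only the spread between libraries. Canonical transcripts have 993 (Fabp5), 1360 (Fabp4) and 564 (Fabp1) bases, and all annotated exons 3667, 4953 and 674. Fabp5 made up 91.4% ± 0.721 (SD, n = 3) of the summed CPM per kilobase in untreated and 79.8% ± 0.635 in TGFβ libraries. Fabp4 took 7.49% ± 0.38 in untreated and 0.0586% ± 0.0229 in TGFβ libraries, and Fabp1 took 1.08% ± 0.384 and 20.2% ± 0.577. Among these 3 carriers Fabp4 thus came second without TGFβ and Fabp1 with it. Fabp7, described below, is not in these shares and had a mean of 44.2 CPM per kilobase in TGFβ libraries, against 33.6 for Fabp1. Fabp1 was below Fabp4 in each untreated library (ratio 0.09 to 0.177 per kilobase) and in each Pam3 library (0.267 to 0.337), and above it in each library with TGFβ (128 to 639). The ratios with TGFβ rest on 3 to 9 Fabp4 counts per library, so their size is uncertain.

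**Figure D1:**
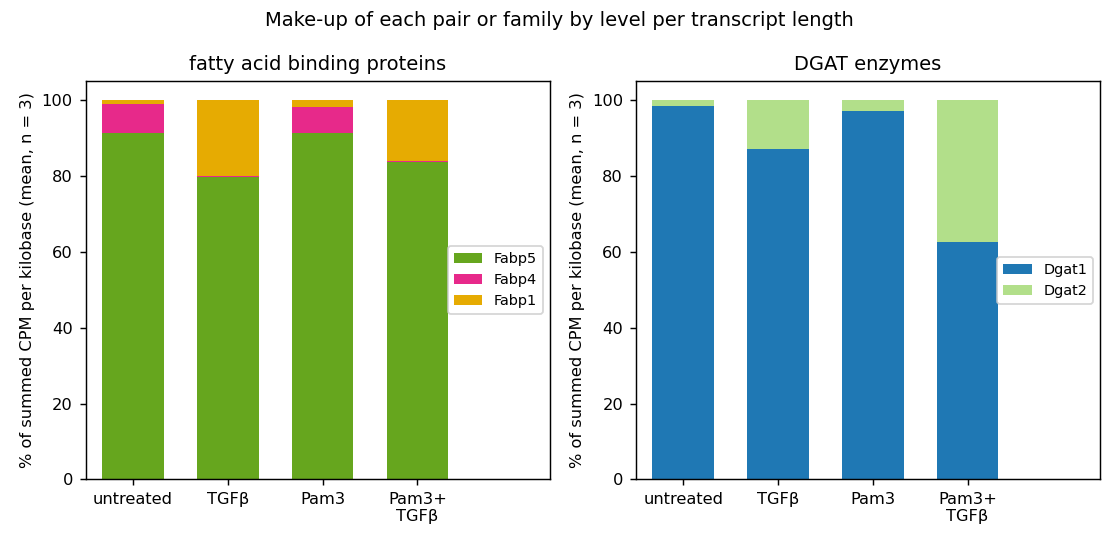
Stacked bars show the mean share (%, n = 3 libraries) of the summed CPM per kilobase held by Fabp5, Fabp4 and Fabp1 (left) and by Dgat1 and Dgat2 (right) in each of the 4 groups. Fabp4 has a visible share only without TGFβ (7.49% in untreated, 6.78% in Pam3 libraries), and Dgat2 reaches 37.4% of the DGAT pair in Pam3+TGFβ libraries against 1.68% in untreated ones.

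The droplet coat genes also diverged. Plin2 (chr4:86565912-86588459, minus strand), a perilipin found on droplets of most cell types, was at 495, 543 and 478 CPM in untreated and at 707, 674 and 650 CPM in TGFβ libraries. The groups did not overlap, and the log2 change was 0.42 (SE 0.0567, adjusted p 7.25e-07). With Pam3 the level went from 531, 501 and 551 CPM to 786, 778 and 720 CPM, a log2 change of 0.53 (SE 0.0568, adjusted p 1.99e-08). The values were 0.40 and 0.53 without the 5 libraries. Plin3 (chr17:56584218-56599873, minus strand), a perilipin that moves between cytosol and droplets, went down in the same cells.

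Plin3 libraries had 137, 157 and 139 CPM in untreated and 85.1, 82.6 and 81.7 CPM in TGFβ cultures, a log2 change of -0.79 (SE 0.0539, adjusted p 3.13e-12). With Pam3 they went from 122, 124 and 131 CPM to 79.5, 78.7 and 77.1 CPM, a log2 change of -0.68 (SE 0.054, adjusted p 7.81e-11). Without the 5 libraries these were -0.80 and -0.63. No library with TGFβ reached the Plin3 level of any library without it. The ratio of Plin2 to Plin3 per kilobase was 6.76 ± 0.203 (SD, n = 3) in untreated and 15.7 ± 0.348 in TGFβ libraries, and 8.09 ± 0.297 in Pam3 and 18.7 ± 0.606 in Pam3+TGFβ libraries. By this measure Plin2 was the main perilipin of the pair throughout, and more so with TGFβ. The size of the ratio depends on the length used. Canonical transcripts have 2050 (Plin2) and 3949 (Plin3) bases, and all annotated exons 7684 and 7295.

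Cidec (chr6:113400691-113412721, minus strand) was the scarcest of the droplet genes, at rank 10212 to 11559 of 13559 genes by mean CPM per kilobase. It had 43 to 61 counts per untreated library, or 1.499, 1.47 and 1.23 CPM, and 89 to 109 counts per TGFβ library, or 3.02, 2.20 and 2.36 CPM. The groups did not overlap, and the log2 change was 0.85 (SE 0.231, adjusted p 0.00339). With Pam3 it went from 1.74, 2.04 and 2.06 CPM to 3.58, 2.68 and 4.11 CPM, a log2 change of 0.83 (SE 0.223, adjusted p 0.00351). At these counts the error is wide, and without the 5 libraries that stood apart the first change was 0.59 (adjusted p 0.206) and the second 1.00 (adjusted p 0.028).

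Lpl (chr8:69284603-69360100, plus strand) was among the most abundant transcripts of these cells, at rank 15 to 24 of 13559 genes by mean CPM per kilobase. It was at 6283, 6295 and 6132 CPM in untreated and at 3617, 3575 and 3389 CPM in TGFβ libraries. The drop was a log2 change of -0.82 (SE 0.0658, adjusted p 9.82e-11), with no overlap. With Pam3 the libraries went from 7346, 7267 and 5880 CPM without TGFβ to 4839, 5159 and 4764 CPM with it, a log2 change of -0.47 (SE 0.0655, adjusted p 1.45e-06). Pam3 library 3 lay well below the other Pam3 libraries and is among those that stood apart. Even the lowest library without TGFβ was above the highest with it, and without the 5 libraries the changes were -0.79 and -0.57.

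The DGAT pair responded by enzyme. Dgat2 (chr7:98802491-98831991, minus strand) was nearly silent without TGFβ, at 1.39, 2.26 and 1.23 CPM in untreated and 1.92, 2.44 and 3.02 CPM in Pam3 libraries. With TGFβ alone it was at 15.6, 16.6 and 14.4 CPM, and in the Pam3+TGFβ libraries at 46.1, 36.3 and 37.1 CPM. The TGFβ effect was a log2 change of 3.23 (SE 0.176, adjusted p 7.57e-12) without Pam3 and of 4.03 (SE 0.165, adjusted p 1.17e-13) with it, or 9.4-fold and 16.3-fold. Leaving out the 5 libraries gave 3.19 and 4.38. The 4 groups of Dgat2 form 3 separate levels, since untreated and Pam3 libraries overlapped.

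Dgat1 (chr15:76385083-76396476, minus strand), a resident enzyme of the endoplasmic reticulum that esterifies fatty acids from outside the cell, stood at a separate level in each group. It had 65.9, 70.2 and 63.9 CPM in untreated, 76.0, 72.7 and 76.5 CPM in TGFβ, 57.9, 52.2 and 57.3 CPM in Pam3 and 46.5, 46.2 and 48.2 CPM in Pam3+TGFβ libraries, and no pair of groups overlapped. TGFβ raised it without Pam3 (log2 fold change 0.17, SE 0.0583, adjusted p 0.0169) and lowered it with Pam3 (-0.25, SE 0.0592, adjusted p 0.00117). The rise was not called without untreated library 3 (0.14, adjusted p 0.0789) or without the 5 libraries that stood apart (0.12, adjusted p 0.351), while the drop with Pam3 was (-0.29, adjusted p 0.0159). Dgat1 overlaps Hsf1 on the opposite strand, and the strand setting of the authors' counting is not given in the sources used here, so reads of the overlap could be shared. Hsf1 was not called in any of the 4 comparisons of 2 groups. It had 31.6 CPM in untreated, 34.8 in TGFβ, 30.8 in Pam3 and 33.9 in Pam3+TGFβ libraries. Plin3 overlaps the long noncoding RNA gene Gm65640 on the same strand. Fabp4, Fabp5, Plin3, Cidec and Lpl each overlap such a gene on the opposite strand. None of these noncoding genes was among those tested.

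Per kilobase, Dgat1 exceeded Dgat2 in every library, by 61.5 ± 15.6 times (SD, n = 3) in untreated, 33.2 ± 8.26 times in Pam3, 6.87 ± 0.662 times in TGFβ and 1.69 ± 0.229 times in Pam3+TGFβ libraries. Dgat2 held 1.68% ± 0.481 of the summed level of the pair in untreated libraries, 12.8% ± 1.1 with TGFβ and 37.4% ± 3.33 with both.

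**Figure D2:**
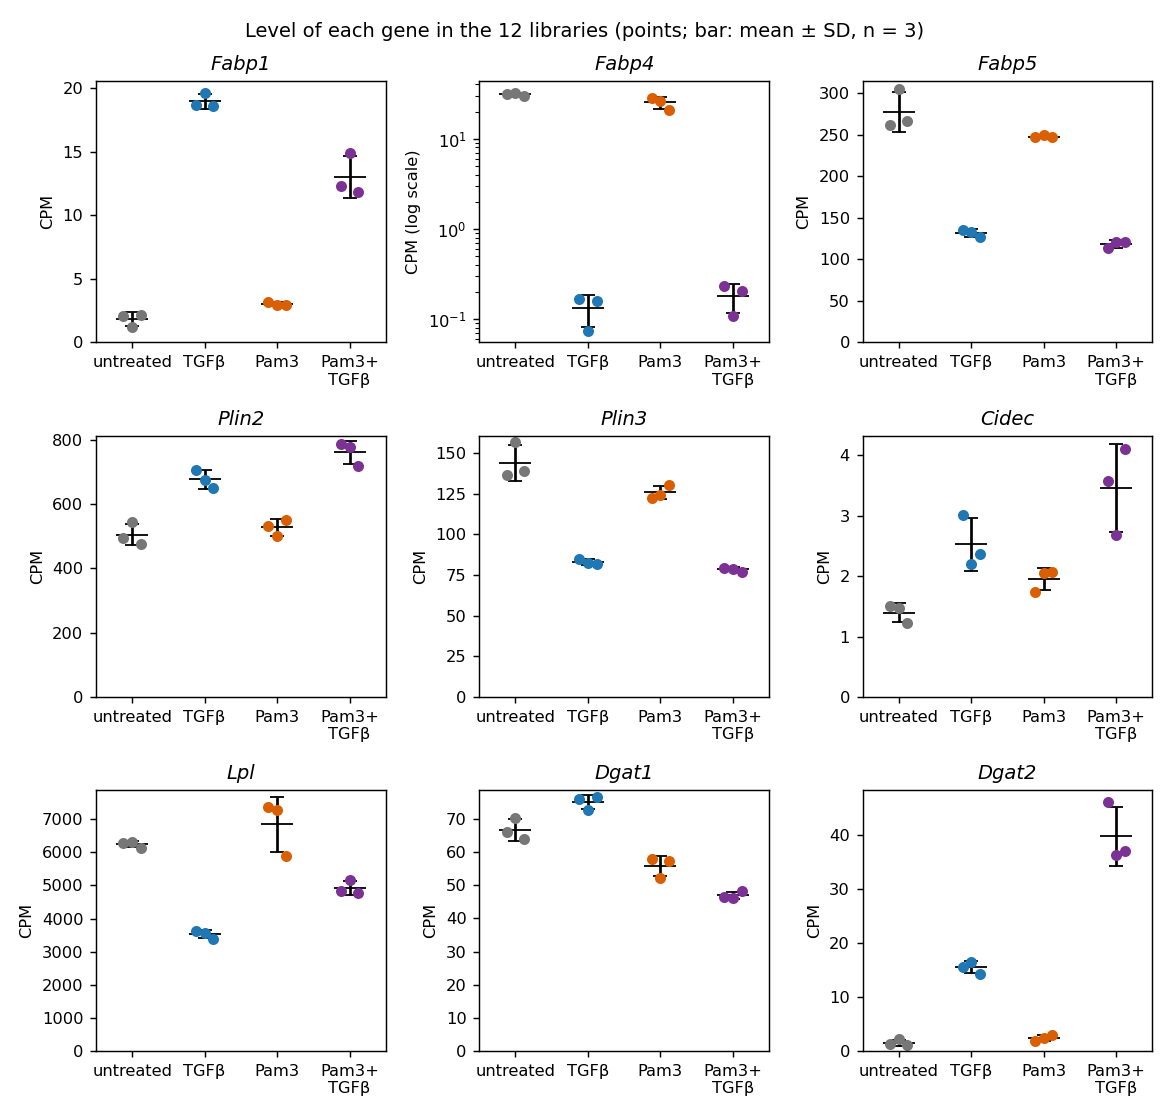
Each panel gives the level of 1 gene in CPM in the 12 libraries (points, coloured by group), with the mean of the 3 libraries as a horizontal line and the SD as whiskers. The Fabp4 axis is logarithmic, since the level runs from 0.0741 to 32.22 CPM. Libraries with TGFβ and without it form separate clouds for every gene but Dgat1. How many of all tested genes separate in this way was not counted. With TGFβ, 51% of all tested genes were called different without Pam3 and 45.3% with it.

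With Pam3 present in both groups, TGFβ again moved all 9 genes, against 45.3% of all tested genes: 4 were higher (Fabp1, Plin2, Cidec and Dgat2; 21.5% of all genes) and 5 lower (Fabp4, Fabp5, Plin3, Lpl and Dgat1; 23.8%). This count was the same, 4 and 5, without the 5 libraries that stood apart. The median log2 fold change of the 9 was -0.25, against 0.00 over all genes. Dgat1 was higher with TGFβ in the absence of Pam3 and lower in its presence.

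Pam3 alone, in cells without TGFβ, gave 5 called genes of the 9, each with a log2 change below 1. Of the 9, 1 was higher (Fabp1; 9.62% of all genes) and 4 were lower (Fabp4, Fabp5, Plin3 and Dgat1; 8.66%), against 18.3% of all genes called, and none changed by 1 or more on the log2 scale, against 1.95% of all genes. This comparison and that of TGFβ alone share the untreated libraries, so their values are given side by side only. Fabp1 rose 1.66-fold, a log2 change of 0.73 (SE 0.174, adjusted p 0.00371), and kept a rise of 0.96 (adjusted p 0.0426) without the 5 libraries that stood apart. The drops were smaller: -0.26 for Dgat1 (SE 0.0587, adjusted p 0.00239), -0.20 for Plin3 (SE 0.0534, adjusted p 0.00984), -0.16 for Fabp5 (SE 0.0511, adjusted p 0.0255) and -0.30 for Fabp4 (SE 0.101, adjusted p 0.0416). None of these 4 drops was called without the 5 libraries, with values of -0.23, -0.25, -0.19 and -0.15 and adjusted p from 0.105 to 0.653.

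Single libraries also decided several of these small calls. The Fabp4 drop was lost without any 1 of untreated 1, 2 or 3, TGFβ 3, Pam3 2 or Pam3 3, with adjusted p from 0.0502 to 0.263. Its value was -0.18 without Pam3 3 and -0.33 to -0.27 in the other 5 of these fits. It was also lost with DESeq2 (adjusted p 0.0573), limma (0.49) and the covariate for RNAs without poly(A) tails (0.0903). The Fabp5 drop was lost without untreated 2 (-0.09, adjusted p 0.165), with Pam3 1, 2 or 3 left out (-0.17 to -0.16, adjusted p 0.0686 to 0.0891) and with only the 6 libraries compared (adjusted p 0.0537). That of Plin3 was lost without untreated 2 (-0.13, adjusted p 0.0672), Pam3 1 (-0.18, adjusted p 0.0656) or Pam3 2 (-0.19, adjusted p 0.0501). Plin2 (0.06, 95% interval -0.05 to 0.18), Cidec (0.48, interval -0.01 to 0.96), Lpl (0.13) and Dgat2 (0.56, interval 0.12 to 1.01) were not called, with adjusted p of 0.526, 0.183, 0.187 and 0.0779. Lpl was called without Pam3 library 3, at 0.23 (adjusted p 0.00465), and Dgat2 without untreated library 2, at 0.89 (adjusted p 0.00213), or without Pam3 library 1, at 0.72 (adjusted p 0.0371). Dgat2 was also called with no filter, by DESeq2 (0.57, adjusted p 0.0197) and by limma, but it was at 0.07 (adjusted p 0.939) without the 5 libraries that stood apart. There Lpl was at 0.23 (adjusted p 0.0647), Cidec at 0.24 and Plin2 at 0.04, none of them called.

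In cells with TGFβ, Pam3 moved 6 of the 9 genes, against 38.5% of all tested genes: 3 were higher (Plin2, Lpl and Dgat2; 20.4% of all genes) and 3 lower (Fabp1, Fabp5 and Dgat1; 18.1%). Dgat2 rose 2.56-fold, a log2 change of 1.36 (SE 0.135, adjusted p 1.02e-07), from 14.4 to 16.6 CPM to 36.3 to 46.1 CPM. Lpl rose by 0.48 (SE 0.0655, adjusted p 1.59e-06), from a mean of 3530 CPM to 4920 CPM, still below the untreated mean of 6240 CPM. Dgat1 went down by a log2 change of -0.68 (SE 0.0589, adjusted p 6.74e-10) and Fabp1 by one of -0.54 (SE 0.123, adjusted p 0.000895). These 4 changes were called under each alternative tried, with values of 1.25, 0.45, -0.64 and -0.60 without the 5 libraries that stood apart.

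The other changes with Pam3 in TGFβ-treated cells were small or not called. Plin2 was higher by 0.17 (SE 0.0566, adjusted p 0.0192), a call lost without TGFβ 2 or 3 or Pam3+TGFβ 1 or 2 (values 0.12 to 0.15) and with upper-quartile scaling (0.11, adjusted p 0.137). Fabp5 was lower by -0.16 (SE 0.0518, adjusted p 0.0189), a call lost without Pam3+TGFβ library 1 (-0.15, adjusted p 0.0526). Neither was called without the 5 libraries, where the values were of like size, 0.16 (adjusted p 0.16) and -0.18 (adjusted p 0.147). Plin3 (-0.08, 95% interval -0.20 to 0.03), Cidec (0.46, interval 0.01 to 0.91) and Fabp4 (0.46, interval -0.52 to 1.44) were not called, and Fabp4 was measured there on 3 to 9 counts per library. Without the 5 libraries they were at -0.09, 0.64 and 1.24, none of them called. Plin3 was called lower with upper-quartile scaling (-0.15, adjusted p 0.0352). With 1 library left out, Cidec ranged from 0.29 to 0.60 and Fabp4 from 0.15 to 0.70, and neither was called.

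**Figure D3:**
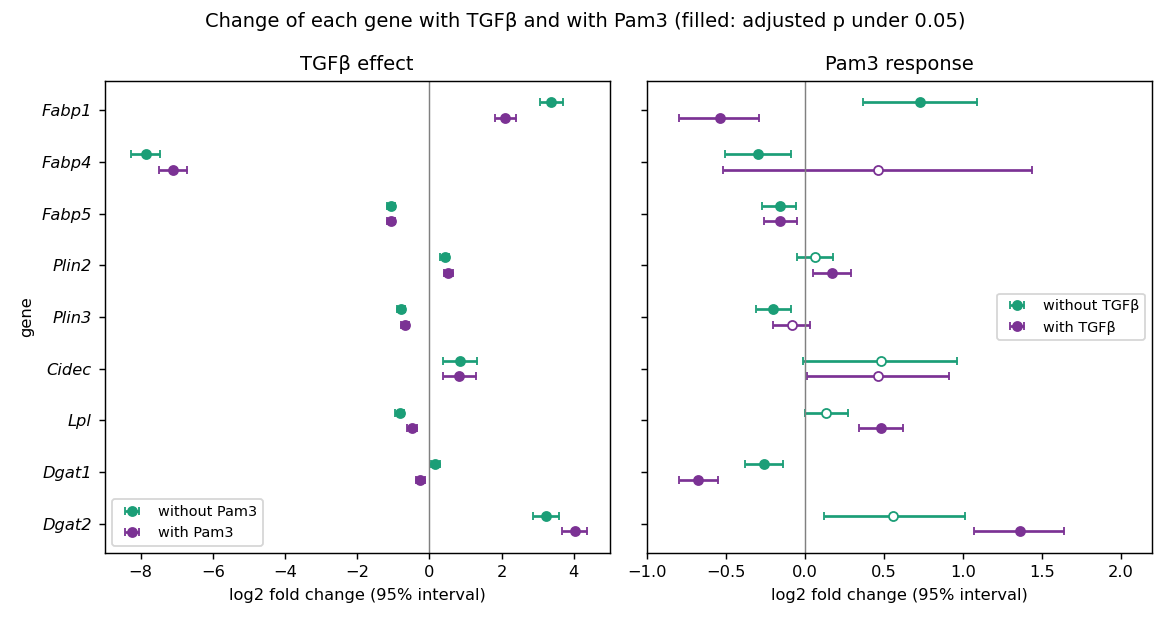
Points give the log2 fold change of each gene with its 95% interval, on the left for TGFβ without Pam3 (green) and with Pam3 (purple), on the right for Pam3 without TGFβ (green) and with TGFβ (purple), and filled points have an adjusted p below 0.05. The 2 panels have different axes: TGFβ changes run from -7.86 to 4.03 and Pam3 changes from -0.68 to 1.36, and Fabp1 is the gene whose Pam3 response is called in opposite directions.

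Whether TGFβ changed the Pam3 response was tested as an interaction, that is, how much higher the response was on the log2 scale when TGFβ was present. Of the 9 genes, 2 had a higher response with TGFβ (Lpl and Dgat2; 10.3% of all genes) and 2 a lower one (Fabp1 and Dgat1; 5.67%), against 15.9% of all tested genes called. Fabp1 had the largest called difference, -1.27 (SE 0.213, adjusted p 9.26e-05), since Pam3 raised it without TGFβ and lowered it with TGFβ. If the 2 single-treatment ratios were multiplied, Fabp1 would stand at 31.1 CPM in Pam3+TGFβ libraries, and 13 CPM was measured. This difference was called under each alternative tried, with adjusted p from 2.3e-09 to 0.00798. Its value was -1.56 without the 5 libraries that stood apart.

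Dgat1 differed by -0.42 (SE 0.0831, adjusted p 0.000662) and Lpl by 0.35 (SE 0.0925, adjusted p 0.00956). For Lpl the product of the single-treatment ratios is 3860 CPM, and 4920 CPM was measured. Both calls held when each library was left out in turn but not without the 5 libraries together, where Dgat1 was at -0.41 (adjusted p 0.0718) and Lpl at 0.22 (adjusted p 0.294). The Dgat2 difference was 0.79 (SE 0.254, adjusted p 0.0393), with 39.8 CPM measured against a product of 23.5 CPM. It was the least certain of the 4. A replicate block (0.79, adjusted p 0.0646), upper-quartile scaling (0.75, adjusted p 0.0503) and limma (0.74, adjusted p 0.0775) each ended its call. The call was lost without any 1 of 8 libraries (untreated 2, TGFβ 1, 2 or 3, Pam3 1 or 2, Pam3+TGFβ 1 or 3), with values of 0.47 to 0.82 and adjusted p of 0.0528 to 0.202, and with the share of RNAs without poly(A) tails as a covariate (0.73, adjusted p 0.0728). It was also lost without the 5 libraries together, where the value was larger (1.18, adjusted p 0.0637). The untreated library 2 holds the highest Dgat2 value of its group. Fabp4, Fabp5, Plin2, Plin3 and Cidec had no called difference, with values from -0.02 to 0.76 and adjusted p from 0.353 to 0.983, and from 0.01 to 1.39 without the 5 libraries, none of them called.

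The profile of each gene over the 12 libraries was compared with those of 12789 other tested genes, by the root mean square (RMS) distance of log2 CPM after each gene was centred on its own mean. The nearest to Fabp1 were Tmem216 (0.302) and Plxnb1 (0.336), and to Dgat2 Tmeff1 (0.308) and Stac (0.359). Serpinb10 (0.378) lay nearest to Fabp4, and the nearest to Fabp5 were Anxa6 (0.0526) and Uap1l1 (0.0609). Plin2 lay nearest to Tuba4a (0.0517) and Rnpep (0.0546), Plin3 to S100a1 (0.0453) and Cst3 (0.0685), and Cidec to Timeless (0.175) and Mgat4a (0.184). Lpl lay nearest to Rcn2 (0.0556) and Mir22hg (0.0735), and Dgat1 to Arhgap9 (0.0628) and Cyp4f37 (0.0651). Among the 9 themselves, Fabp5 and Plin3 had the most alike profiles (0.172), followed by Plin3 and Lpl (0.256) and by Plin2 and Cidec (0.301), while Fabp4 and Dgat2 were farthest apart (5.4).

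A wider list of 84 other lipid genes gave 61 that passed the filter. With TGFβ and no Pam3, 19 of the 61 were higher and 20 lower, where 22.9% and 28.1% of all tested genes were. Where both groups had Pam3, TGFβ left 18 higher and 17 lower, against 21.5% and 23.8% of all genes. Pam3 without TGFβ left 6 higher and 13 lower, against 9.62% and 8.66%, and Pam3 with TGFβ 14 higher and 20 lower, against 20.4% and 18.1%. In the interaction 9 of the 61 were higher and 7 lower, against 10.3% and 5.67%. The median log2 fold change of the 61 lay between -0.07 and 0.05 in these 5 comparisons, and that of all tested genes between -0.019 and 0.005. Up to 3 genes per role are described below, those with the largest change. Counts by role are for TGFβ alone and stand against the same 22.9% higher and 28.1% lower of all genes, and are given as a description.

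Among the other binding proteins, 2 of 7 passed the filter. Fabp7, the brain type carrier, was at 8.55, 9.19 and 9.13 CPM in untreated and at 43.7, 41.1 and 40.3 CPM in TGFβ libraries, a log2 change of 2.22 (SE 0.0856, adjusted p 3.62e-17), and it fell with Pam3 both without TGFβ (-0.40, adjusted p 0.00254) and with it (-0.61, adjusted p 6.19e-07). The first of these drops was not called without the 5 libraries (-0.27, adjusted p 0.331). Fabp7 thus went up with TGFβ as Fabp1 did, opposite to Fabp4 and Fabp5. Plin1, the main perilipin of fat cells, was scarce but higher with TGFβ (1.55 ± 0.367 to 5.74 ± 0.547 CPM, SD, n = 3, log2 fold change 1.88, adjusted p 1.85e-07) and lower with Pam3 in TGFβ-treated cells (-0.92, adjusted p 0.00143). Fabp2, Fabp6, Fabp9 and Pmp2 had no count in any library.

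In the role of fatty acid uptake and activation, 3 of 9 tested genes were higher and 3 lower with TGFβ alone. The scavenger receptor Cd36, which takes up fatty acids and oxidised lipoproteins, was at 446, 451 and 472 CPM in untreated and at 50.1, 55.7 and 47.8 CPM in TGFβ libraries. This 8.91-fold drop was a log2 change of -3.15 (SE 0.0642, adjusted p 9.56e-20), and with Pam3 the change was -2.93 (SE 0.0634, adjusted p 3.26e-19). The groups with and without TGFβ were far apart. The transporter gene Slc27a6 had 41 to 48 counts per untreated library and 0, 4 and 0 in TGFβ libraries. It had 11 to 22 counts in Pam3 libraries and 0 in all 3 Pam3+TGFβ libraries, so it was at least 5.84-fold lower there, taking the floor of 3 counts per library. Acsl3, an acyl-CoA synthetase linked to droplet growth, was higher with TGFβ by 1.28 (SE 0.0699, adjusted p 3.91e-14) and by 0.66 with Pam3 present (SE 0.0696, adjusted p 1.33e-08).

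Of 6 tested partners of lipoprotein lipase, 1 was higher and 3 were lower with TGFβ alone. The higher one was Angptl4, a secreted inhibitor of the lipase. Its libraries had 39.9, 43.3 and 39.4 CPM in untreated and 158, 162 and 153 CPM in TGFβ cultures, a log2 change of 1.95 (SE 0.0568, adjusted p 1.14e-19), and with Pam3 the change was 1.77 (SE 0.0569, adjusted p 1.11e-18). Transcripts of the enzyme fell and those of its inhibitor rose in the same libraries. Furin, a protease that can cleave the lipase, was lower with TGFβ by a log2 change of -0.20 (adjusted p 0.00202). With Pam3 in both groups it was at 0.02 and not called (adjusted p 0.789), and Pam3 alone gave -0.38 (adjusted p 3.99e-06).

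Of 12 tested genes of triglyceride and sterol ester synthesis, 4 were higher and 4 lower with TGFβ alone. Gpat3, which makes the first intermediate of the path that DGAT enzymes end, went from 4.18 ± 1.04 CPM to 13 ± 1.12 CPM (SD, n = 3) with TGFβ, or 1.64 on the log2 scale (adjusted p 2.97e-10), and 1.97 with Pam3 (adjusted p 7.71e-12). Lpin1, a phosphatidate phosphatase just before the DGAT step, was higher with TGFβ (0.79, adjusted p 6.88e-12, and 0.23, adjusted p 0.00188, with Pam3 present) and lower with Pam3, by -0.65 (adjusted p 2.81e-09) without TGFβ and by -1.22 (adjusted p 2.56e-15) with it. Agpat4 rose with Pam3 in both settings, by 0.57 (adjusted p 1.16e-06) and 1.14 (adjusted p 1.32e-12). With TGFβ Agpat4 was lower in the absence of Pam3 (-0.22, adjusted p 0.0112, groups overlapping) and higher in its presence (0.34, adjusted p 0.000228). The first of these calls was lost without untreated 2 (-0.11, adjusted p 0.127), TGFβ 2 (-0.18, adjusted p 0.0649) or TGFβ 3 (-0.16, adjusted p 0.101), and with only the 6 libraries compared (-0.20, adjusted p 0.0549). Gpat3 and Dgat2 were both highest in the Pam3+TGFβ group, while Lpin1 was highest with TGFβ alone.

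Of 12 tested genes of lipolysis and its regulators, 4 were higher and 3 lower with TGFβ alone. G0s2, an inhibitor of adipose triglyceride lipase, was at 1.6 ± 0.446 CPM in untreated and at 6.71 ± 0.911 CPM in TGFβ libraries (SD, n = 3), higher by 2.07 (adjusted p 2.39e-08), and fell with Pam3 in TGFβ-treated cells by 1.82 (adjusted p 2.55e-07). Pnpla3, at a lower level, was higher with TGFβ alone, at 0.378 ± 0.159 and 1.56 ± 0.177 CPM (2.04, adjusted p 0.000495), and fell by 1.90 with Pam3 on top (adjusted p 0.00129). Both Pnpla3 calls were lost without the 5 libraries (1.85, adjusted p 0.0572, and -1.76, adjusted p 0.0643). With Pam3 in both groups TGFβ gave 0.90 for G0s2 (adjusted p 0.00437), lost without the 5 libraries (0.50, adjusted p 0.316), and 0.57 for Pnpla3, which was not called (adjusted p 0.365). Mgll, the monoglyceride lipase, fell by 0.98 with TGFβ alone (adjusted p 2.09e-14), and where both groups had Pam3 it fell by 1.06 (adjusted p 5.79e-15).

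Of 8 tested genes of droplet formation and surface, 1 was higher and 5 were lower with TGFβ alone. The higher one was Bscl2, which encodes seipin, a protein of droplet assembly (0.43, adjusted p 4.48e-06), and Aup1 (-0.43, adjusted p 1.16e-06) and Mettl7a1 (-0.32, adjusted p 0.0242) were among the lower ones. The Mettl7a1 groups overlapped, and its call was lost without untreated 1 (-0.16, adjusted p 0.266), TGFβ 2 (-0.24, adjusted p 0.137) or TGFβ 3 (-0.26, adjusted p 0.115). Of 10 tested nuclear receptors and partners, 4 were higher and 2 lower. Pparg rose by 0.94 with TGFβ (adjusted p 2.34e-15) and fell by 0.39 with Pam3 (adjusted p 4.09e-07), with an interaction of 0.00 (95% interval -0.13 to 0.13). Its coactivator Ppargc1b fell with TGFβ (-0.94, adjusted p 1.62e-06), and Cebpa was not called with TGFβ alone (0.03, adjusted p 0.584) but was lower with TGFβ where both groups had Pam3 (-0.41, adjusted p 1.85e-07). It fell with Pam3, by 0.40 without TGFβ (adjusted p 1.01e-06) and by 0.84 with it (adjusted p 3.04e-13).

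Some further calls marked in the heatmap of lipid genes were lost without the 5 libraries that stood apart. These were Agpat4 with TGFβ alone (-0.26, adjusted p 0.0937), Aup1 with TGFβ where Pam3 was present (-0.15, adjusted p 0.234) and, for Pam3 without TGFβ, Acsl3 (0.21, adjusted p 0.345) and Mettl7a1 (-0.49, adjusted p 0.071). For Pam3 with TGFβ they were Cd36 (0.19), Furin (-0.12), Gpat3 (0.41), Mgll (-0.11), Bscl2 (-0.16) and Ppargc1b (-0.40), with adjusted p from 0.0924 to 0.352.

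**Figure D4:**
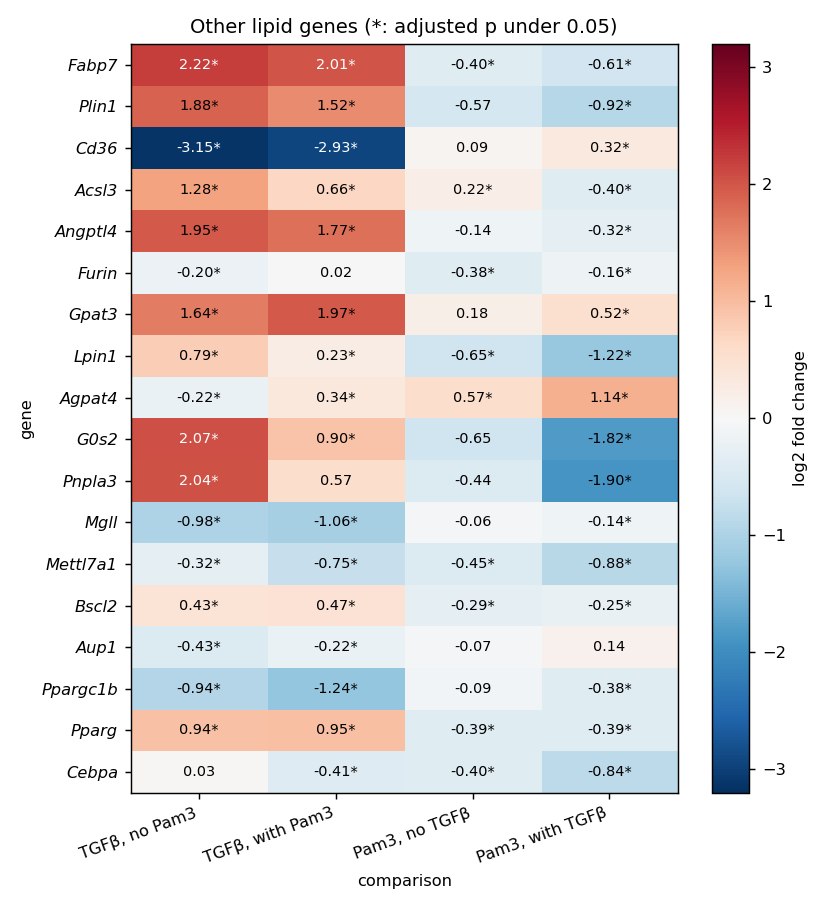
Each cell gives the log2 fold change of 1 of 18 named lipid genes (rows) in 1 of 4 comparisons (columns), coloured from blue (lower) to red (higher), and an asterisk marks an adjusted p below 0.05. Slc27a6 is left out because it has 0 counts in all Pam3+TGFβ libraries. The lowest cells are those of Cd36 with TGFβ (-3.15 and -2.93) and the highest is that of Fabp7 with TGFβ and no Pam3 (2.22).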

How the data were processed

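Messenger RNA of 12 FLAM cultures was sequenced. Per the submitters' processing notes, the authors aligned reads to GRCm39 with Bowtie2 2.4.1, counted them with featureCounts (Subread 2.0.0) and used DESeq2 1.36.0. Annotation and strand setting are not given in the sources used here. Bowtie2 does not split reads over introns, so reads over splice junctions may be missed. The deposited counts are whole reads per symbol. Values that the authors normalized, deposited as a signal, were used in 1 alternative alone.

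Genes were filtered with filterByExpr (minimum count 10), scaled by TMM and tested by quasi-likelihood (edgeR 4.0.16, R 4.3.3) on all 12 libraries with 4 group means. The 5 contrasts were adjusted by Benjamini-Hochberg over 14749 genes and called below 0.05. Levels are CPM. Gene lengths and starts come from GENCODE M39, matched by symbol for 91.9% of tested genes. No replicate pair was alike within counting noise (chi-square of 9.99 to 220 for each degree of freedom). The procedure was tested on simulated counts with known interactions. It recovered 81 of 100 genes changed by 1 on the log2 scale and 98 of 100 changed by 2. Of its 187 calls, 8 were false. Smaller interactions were not simulated. Alternatives were other scalings and filters, DESeq2 1.42.0, limma 3.58.1 on log2 of the normalized values plus 1, a replicate block, fits of 6 libraries and leaving out each library. Floors cover counting error only, since reads carry no molecular identifiers.

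The members and lists were chosen with earlier results of these data known. All 9 genes were named, with up to 3 genes of each role of the lipid list (called in at least 1 contrast, at least 1 CPM in a group, largest change) and the 2 nearest profiles of each gene. Some items that this rule names, and 1 of the 9 promoters, are not reported here.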

Additional observations from a re-analysis of the deposited data

Results flagged for a closer look

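The Pam3 response differed with TGFβ for 4 of the 9 genes and, of the 61 other lipid genes tested, was higher with TGFβ for 9 and lower for 7, by the interaction test of edgeR over all genes, which called 15.9% of them (log2 scale, positive where the response was higher with TGFβ). Of the 9 genes these were Fabp1 at -1.27 (SE 0.213, adjusted p 9.26e-05), Dgat1 at -0.42 (SE 0.0831, adjusted p 0.000662), Lpl at 0.35 (SE 0.0925, adjusted p 0.00956) and Dgat2 at 0.79 (SE 0.254, adjusted p 0.0393). The Dgat2 call was lost under 13 of 21 alternatives, the replicate block among them (adjusted p 0.0646), and the Dgat1 and Lpl calls in the fit without the 5 libraries rich in RNAs lacking poly(A) tails (adjusted p 0.0718 and 0.294). Among these other lipid genes, those described by name, which were chosen for being called in some comparison with a large change, were Lpin1 at -0.56 (adjusted p 8.49e-06), Acsl3 at -0.62 (adjusted p 4.26e-05), Cebpa at -0.44 (adjusted p 4.26e-05), G0s2 at -1.17 (adjusted p 0.0176), Agpat4 at 0.56 (adjusted p 0.000172) and Furin at 0.21 (adjusted p 0.0397). The Furin call was lost under 11 of 21 alternatives, among them upper-quartile scaling (0.17, adjusted p 0.129), the fit without the 5 libraries (0.36, adjusted p 0.0608) and each of untreated 1 or 2, TGFβ 1 or 2, Pam3 1 or 2 and Pam3+TGFβ 1, 2 or 3 left out (adjusted p 0.0624 to 0.192). The G0s2 call was lost without TGFβ 2 (-1.07, adjusted p 0.0622) or Pam3 1 (-0.89, adjusted p 0.109). Acsl3 had a Pam3 response of 0.22 without TGFβ (adjusted p 0.0343) and of -0.40 with it (adjusted p 2.72e-05). The first of these was lost under 8 of 22 alternatives: no filter (adjusted p 0.0703), the 6 libraries compared (0.0907), untreated 2 or 3 or Pam3 1, 2 or 3 left out (0.0683 to 0.129) and the fit without the 5 libraries (0.345).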

How the results depend on the processing

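Of 45 fold changes of the 9 genes, 29 kept direction and side of the threshold under all alternatives, and of 95 of the named lipid genes 64 did. Over 975 alternative values of the 9 genes, 907 did, 47 lost the call, 7 gained it and 14 turned sign. With Pam3 alone, 2 of the 9 genes were higher with no filter, with DESeq2 and with limma, against 1. In the interaction, 1 rather than 2 was higher with upper-quartile scaling, the replicate block, limma and the poly(A) covariate, Dgat2 being lost each time. The block changed no other call of the 9 genes. Same-numbered libraries correlated at -0.174 to 0.3 over 18 pairs, 7 of them over 0.1, and 5 of 12 libraries correlated best with their own number, so the numbers were not taken as pairs. Alternatives with the poly(A) covariate, or without the 5 libraries rich in RNAs lacking poly(A) tails, were chosen after seeing the data. Without those 5, Pam3 alone called 1173 genes and 0 of the 9 lower, Pam3 with TGFβ called 3370 genes, TGFβ alone had 3 of the 9 higher, and the interaction called 802 genes with 0 of the 9 higher and 1 lower, Dgat2 being at 1.18 (adjusted p 0.0637) and Lpl at 0.22 (adjusted p 0.294). That fit has fewer libraries.

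Leaving out each library gave 1 to 2 of the 9 higher and 1 to 4 lower with Pam3 alone, and 1 to 2 higher in the interaction. Some interactions that were not called turned sign. Fabp5 was at -0.04 with upper-quartile scaling, -0.00 with the covariate and -0.06 to 0.05 with a library left out. Cidec was at 0.03 with the covariate, 0.41 without the 5 libraries and -0.19 to 0.12. Bscl2 was at -0.01 with upper-quartile scaling and -0.04 to 0.09. Pparg was at -0.04 with upper-quartile scaling, -0.07 without the 5 libraries and -0.03 to 0.02. Cd36 went from 0.22 to -0.01 and Mgll from -0.08 to 0.05 without the 5 libraries. Slc27a6, at -2.22 with all libraries, was at 0.59 with limma and -2.77 to 1.29, and in Pam3 with TGFβ at -4.06 to 0.00. Furin with TGFβ and Pam3 was at -0.01 to 0.09. The cause was not tested. Upper-quartile scaling changed the split of all genes to 1299 higher and 1495 lower for Pam3 alone, 2477 and 3489 for Pam3 with TGFβ and 1255 and 1097 for the interaction, against 1419 and 1278, 3008 and 2670, and 1516 and 836. No scaling moved the median of all genes by more than 0.062. The planned sum of Fabp5 with its copies was not run, as no other symbol begins with Fabp5. Fabp4 with TGFβ rests on 3 to 9 counts per library, and with at least 10 counts required in every library it was not tested.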
